A study of Homo sapiens with 6 samples.

Results

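The regions described here are sites of BRA binding that were called in activin-treated cells with both anti-BRA antibodies and had no counterpart in the R&D Systems list of BMP4-treated cells. They were chosen from the peak lists as R&D Systems FLyA peaks that overlapped no R&D Systems FLyB peak and at least 1 Santa Cruz FLyA peak, by 1 bp or more. This gave 244 regions, each 400 bp long like its Santa Cruz partner, out of 25864 peaks in the R&D Systems FLyA list and 54994 peaks in all 4 lists. The overlap of these 3 lists chose the regions and is given as a description.

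ChIP-seq for BRA was carried out on H9 cells, which are an established line of human embryonic stem cells. All cells were differentiated for 36 h in chemically defined medium with 20 ng/ml FGF2 and 10 μM LY294002, an inhibitor of PI3 kinase. FLyA medium also held 100 ng/ml activin A and is labelled as giving endoderm progenitors, and FLyB medium held 10 ng/ml BMP4 in its place and is labelled as giving mesoderm progenitors. Each medium had 1 library with the R&D Systems antibody (AF2085) and 1 with the Santa Cruz antibody (sc-20109), both on the same line, and 2 libraries of input DNA are not analysed here. Peak positions do not measure expression, so the cell type labels could not be checked against markers.

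BRA, the product of the T gene, is a T-box transcription factor of the primitive streak, the structure through which cells of the embryo pass as they become mesoderm or endoderm. Activin A and the related factor Nodal signal through SMAD2 and SMAD3 and at high dose favour the anterior streak and definitive endoderm. BMP4 signals through SMAD1 and related SMADs and favours the posterior streak and its mesoderm. A transcription factor can occupy different sites in such cell states because its partners and the accessible chromatin differ, and sites bound in 1 state are often studied as candidate enhancers of that state.

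The lists hold a chromosome, a start and an end for each peak, with no height, fold enrichment or p-value. The read depth behind a region is therefore unknown, and a region called in FLyA alone is not shown to be unbound in FLyB. The R&D Systems lists hold 25864 (FLyA) and 23687 (FLyB) peaks, while those of the Santa Cruz antibody are shorter, with 2436 peaks in FLyA and 3007 in FLyB. The paper reports that the Santa Cruz experiments gave fewer unique reads and a poorer ratio of signal to noise. For that reason it based its later analyses on the R&D Systems data. Absence from a Santa Cruz list is therefore weak evidence that a site was unbound. The paper also reports that BRA binding correlated highly between the antibodies in each medium. It further reports that ChIP-qPCR at a set of selected targets bore out differences in binding between the media. Each medium had 1 library per antibody, and although the antibodies served as replicate experiments, their lists differ in length and hold no value per peak that a model could use. No test was therefore run, and shares are given with exact (Clopper-Pearson) 95% intervals that cover counting error only. Regions close to each other depend on each other, and the intervals say nothing of how much a repeat experiment would vary. Positions are on hg19, the build named in the labels, and are counted from 1. A genome and an annotation of that build were not used here, so no gene, exon or sequence is given for a region.

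Few activin-only sites were seen with both antibodies. Of the 25864 R&D Systems FLyA peaks, 17320 (67.0%) overlapped no FLyB peak, and 1.41% of these lay on a Santa Cruz FLyA peak, which makes the 244 regions. Among the 8544 R&D Systems FLyA peaks shared with FLyB, 537 regions (6.29%) lay on a Santa Cruz FLyA peak, and these are called common regions here. Where neighbours are counted, a common peak is any of the 8544, with or without a Santa Cruz peak. Of the 15129 further R&D Systems peaks found in FLyB alone, 1130 (7.47%) lay on a Santa Cruz peak of their medium. The activin-only regions thus made up 31.2% of the 781 R&D Systems FLyA peaks seen with both antibodies in FLyA, and their partners made up 9.93% of the Santa Cruz FLyA list. As the Santa Cruz FLyB list is longer than the FLyA list and the R&D Systems lists name no threshold, how far these shares follow the lists' lengths was not tested.

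Each of the 244 regions met exactly 1 Santa Cruz FLyA peak, and 242 different Santa Cruz peaks were met. A pair of regions shared 1 Santa Cruz peak on chromosome 12 (chr12:105193079-105193478 and chr12:105193648-105194047) and another pair did so on chromosome 2 (chr2:171386689-171387088 and chr2:171387188-171387587). The midpoints of both antibodies lay a median of 52 bp apart, with quartiles of 20 and 129 bp. They were within 50 bp at 116 regions (47.5%) and within 10 bp at 36. The Santa Cruz midpoint had the larger coordinate at 125 regions, the smaller at 117 and the same at 2, so neither antibody lay to one side. At the 537 common regions the median was 35 bp, and at the 1130 BMP4-only regions 32 bp, where 67.7% of the midpoints were within 50 bp.

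**Figure D1:**
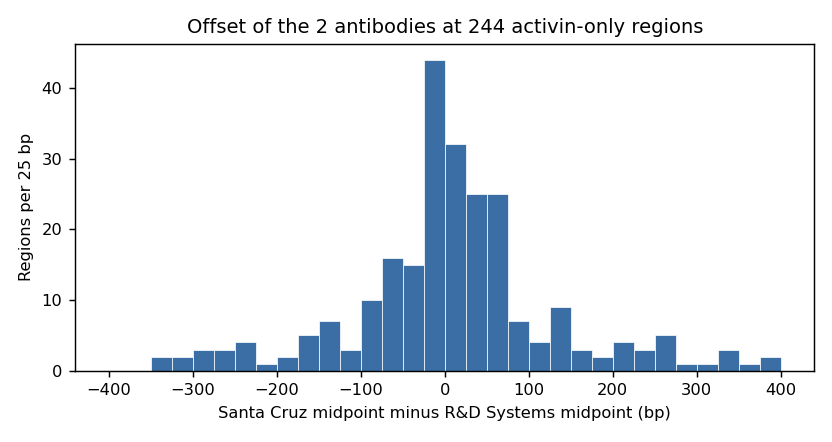
Distance in bp from the R&D Systems midpoint to the Santa Cruz midpoint (x axis) at the 244 activin-only regions, with the number of regions per 25 bp on the y axis. Most regions lie near 0, and 35 regions have midpoints more than 200 bp apart.

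The tail of the offsets holds the regions that only just met the rule. In 35 regions the midpoints were more than 200 bp apart, and in 3 regions the peaks shared fewer than 50 bp. The smallest overlap was 13 bp, at chr3:37949396-37949795. Just outside the rule, the nearest Santa Cruz FLyA midpoints to an FLyA-only peak that was left out were 406, 419 and 424 bp away, and 52 such peaks had one within 1 kb. On the side of the other medium, the regions closest to an R&D Systems FLyB peak had its midpoint at 447 bp (chr9:124049234-124049633), 474 bp (chr13:46343180-46343579) and 507 bp (chr12:12008995-12009394). The common regions that overlapped a FLyB peak least had midpoints 398, 388 and 380 bp apart.

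The Santa Cruz FLyB list was not used in choosing the regions and comes from a separate library of the BMP4 condition. Of the 244 regions, 4 lay on a Santa Cruz FLyB peak (1.64%, 95% interval 0.448 to 4.14%), against 5.01% of all R&D Systems FLyA peaks. Among the common regions with a Santa Cruz FLyA peak the share was 41.3% (37.1 to 45.6%), and the interval did not overlap that of the activin-only regions. Among the 17076 FLyA-only peaks without a Santa Cruz FLyA peak the share was 0.281% (0.207 to 0.373%), and this interval lay below that of the 244 regions, a difference that rested on 3 regions described next. Of the 1130 BMP4-only regions, 13 (1.15%, 0.614 to 1.96%) lay on a Santa Cruz FLyA peak. Absence from the R&D Systems FLyB list was set by the rule, and 240 of the 244 regions were also absent from the Santa Cruz one. That list met 222 of the 537 common regions, so absence from it does not show a site to be unbound.

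The exceptions were few enough to name. A Santa Cruz FLyB peak lay on chr10:42400046-42400445, chr13:46343180-46343579, chr18:18511824-18512223 and chr18:18520103-18520502. The region on chromosome 13 was also the one with a FLyB peak of the R&D Systems list 474 bp away. The other 3 regions lay beside the longest stretch of their chromosome that held no peak of any list, at 41.2 kb from its end on chromosome 10 and at 0.200 and 8.48 kb on chromosome 18. The region at 0.200 kb was itself the peak at which its stretch ended.

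These stretches were therefore examined for every region, a measure chosen after the data were seen. A stretch of at least 3 Mb without any peak was found on 20 of 24 chromosomes, and the lists do not say what it holds. Within 500 kb of the longest stretch of their chromosome lay 8 of the 244 regions (3.28%, 1.43 to 6.36%). The share was 0.521% (0.419 to 0.641%) among the FLyA-only peaks without a Santa Cruz FLyA peak and 8.94% (6.66 to 11.7%) among the common regions with one. Besides the 3 regions above, the 8 comprised chr8:43793012-43793411, chr10:42799808-42800207, chr13:88900689-88901088, chr14:20365501-20365900 and chrY:10029460-10029859. On chromosome 13 the longest stretch (1.03 Mb) was hardly longer than the next, and on chromosome 14 it was 1.32 Mb. The stretches were bounded by peaks of the 4 lists, the regions and their partners included. That of chromosome 18 ended at chr18:18511824-18512223, and that of chromosome 13 at the Santa Cruz partner of chr13:88900689-88901088. The closeness of these regions to a stretch was thus set by how the stretches were defined. The 8 regions split by their offsets, as the midpoints of both antibodies lay within 10 bp at 5 of them and 156, 181 and 273 bp apart at the other 3, of which 2 lay on a Santa Cruz FLyB peak. Without the 8 regions, 1 of 236 (0.424%, 0.0107 to 2.34%) lay on a Santa Cruz FLyB peak, close to the 0.259% of the FLyA-only peaks that were seen with the R&D Systems antibody alone and lay away from the stretches. The BMP4-only regions away from the stretches lay on a Santa Cruz FLyA peak in 5 of 1109 cases (0.451%, 0.147 to 1.05%). What these stretches contribute to the lists was not tested.

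The listed positions of the activin-only regions fell on all autosomes, X and Y. The region placed on Y was 1 of 2 FLyA-only R&D Systems peaks there, and whether it reflects binding on that chromosome was not tested. Chromosome 2 held the most, 29 regions (11.9%, 8.11 to 16.6%), followed by chromosome 1 with 20 and chromosome 3 with 18. All activin-only R&D Systems peaks were placed on chromosome 2 in 8.52% of cases, inside the interval. Chromosome 17 held 15 regions (6.15%, 3.48 to 9.94%), against 4.53% of all activin-only R&D Systems peaks and 8.42% of the Santa Cruz FLyA list. Chromosome X held 14 regions and chromosome 22 held 1. On 25 of 25 chromosomes, the mitochondrial one with 0 regions included, the share of all activin-only peaks lay inside the interval of the 244 regions. All activin-only peaks include the 244 regions, so the 2 shares are not independent. On Y, where the region is itself 1 of the 2 peaks, the share of 0.0115% only just exceeded the lower limit of 0.0104%.

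**Figure D2:**
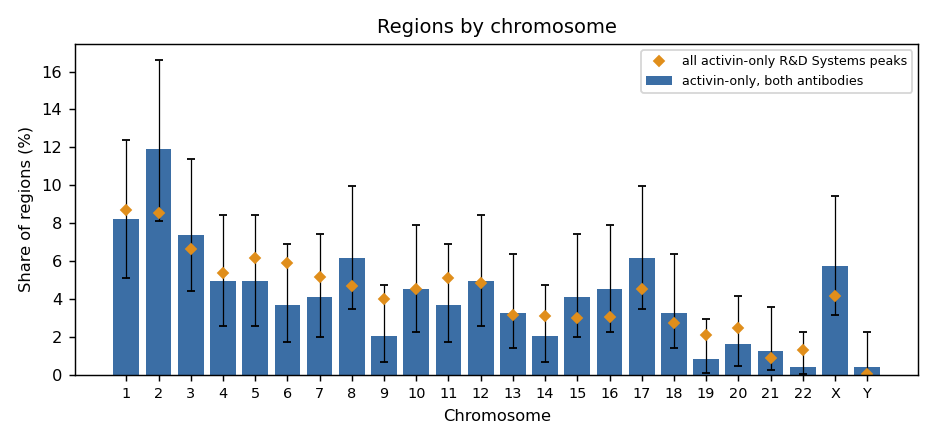
Share of the 244 activin-only regions on each chromosome in percent (bars, with exact 95% intervals as lines) and of all 17320 activin-only R&D Systems peaks (diamonds). Every diamond lies inside the interval of its bar, on Y only just, and the diamonds include the 244 regions.

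The regions were mostly single, but many had other FLyA peaks close by. Of the 244 regions, 226 had no other of the regions within 100 kb, and 18 formed 9 pairs. Another peak of the R&D Systems FLyA list lay within 10 kb of 98 regions (40.2%, 34.0 to 46.6%), against 33.2% of the whole list and 30.6% (29.9 to 31.3%) of the FLyA-only peaks without a Santa Cruz FLyA peak. Among the BMP4-only regions seen with both antibodies, 47.1% (44.1 to 50.04%) had another FLyB peak within 10 kb, an interval that overlaps that of the activin-only regions. The neighbour within 10 kb was itself activin-only at 75 regions (30.7%, 25.01 to 36.9%), against 22.3% (21.7 to 22.9%) of the FLyA-only peaks without a Santa Cruz FLyA peak. Common peaks lay within 10 kb of 43 regions (17.6%, 13.1 to 22.99%), against 12.4% (11.9 to 12.9%). At 50 kb the same shares were 65.2% (58.8 to 71.1%) against 56.1% (55.4 to 56.9%) for activin-only neighbours, and 35.2% (29.3 to 41.6%) against 34.3% (33.6 to 35.0%) for common ones. Of the common regions, 30.4% (26.5 to 34.4%) had an activin-only peak within 10 kb and 64.6% (60.4 to 68.7%) within 50 kb. These shares were close to those of the activin-only regions. Another common peak lay near more of the common regions, 29.2% (25.4 to 33.3%) at 10 kb and 56.4% (52.1 to 60.7%) at 50 kb.

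A further Santa Cruz FLyA peak, other than the partner, lay within 10 kb of 16 regions (6.56%, 3.79 to 10.4%), against 2.90% of the FLyA-only peaks without a partner. A Santa Cruz FLyB peak lay within the same distance of 19 regions (7.79%, 4.75 to 11.9%), against 3.84%. The 19 included chr10:42400046-42400445 and the regions near a longest stretch on chromosomes 8, 18 and Y. Shares at 10 kb without the regions near a stretch were not computed. Within 50 kb of any region, excluding partners, stood 57 Santa Cruz FLyA peaks and 57 Santa Cruz FLyB peaks, so that 50% (40.5 to 59.5%) were of FLyA, where FLyA holds 44.8% of both lists together. Leaving out the 8 regions near a longest stretch left 38 and 36 peaks, or 51.4% (39.4 to 63.1%).

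**Figure D3:**
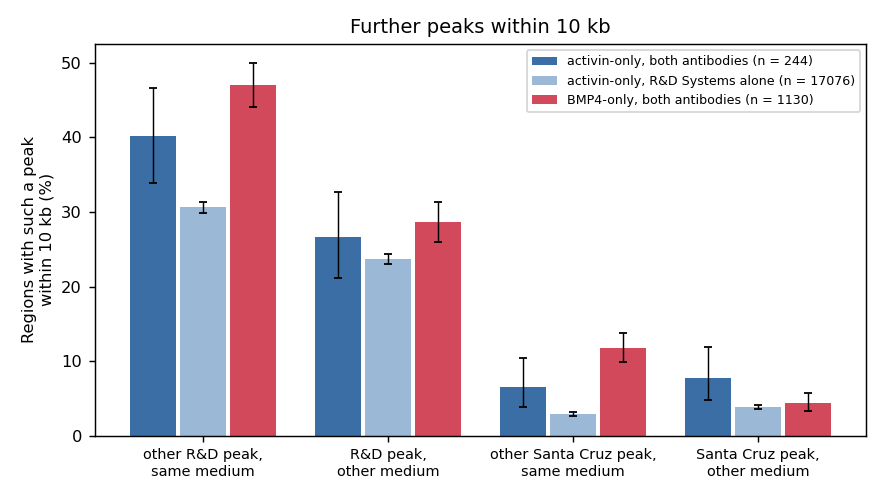
Percent of regions with a further peak within 10 kb (y axis, exact 95% intervals as lines), for R&D Systems and Santa Cruz peaks of the same and of the other medium (x axis), in the 244 activin-only regions, the 17076 FLyA-only peaks seen with the R&D Systems antibody alone and the 1130 BMP4-only regions seen with both antibodies. Another R&D Systems peak of the same medium was found near 40.2%, 30.6% and 47.1% of them.

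R&D Systems FLyB peaks lay near the activin-only regions about as often as near the other FLyA-only peaks. An R&D Systems FLyB peak lay within 10 kb of 65 regions (26.6%, 21.2 to 32.7%) and within 50 kb of 141 (57.8%, 51.3 to 64.1%). Over the whole R&D Systems FLyA list 48.9% had one within 10 kb, but that count includes the peaks that overlap a FLyB peak. For the FLyA-only peaks without a Santa Cruz FLyA peak the share was 23.7% (23.1 to 24.3%) at 10 kb and 57.4% (56.6 to 58.1%) at 50 kb, and both shares lie inside the intervals of the 244 regions. For the BMP4-only regions, read against FLyA peaks, it was 28.7% (26.0 to 31.4%) at 10 kb and 66.7% (63.9 to 69.5%) at 50 kb. The median distance from an activin-only region to the nearest FLyB midpoint was 31.3 kb, with quartiles of 8.08 and 103 kb. To the nearest other FLyA midpoint it was 15.1 kb, with quartiles of 4.40 and 70.6 kb.

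Another FLyA peak was the nearer neighbour at 153 regions and a FLyB peak at 91. The rule barred an overlapping FLyB peak but not an overlapping FLyA peak, and the FLyA list is the longer. The same count was not made for other FLyA-only peaks. The BMP4-only regions also lay nearer to their own list, with medians of 11.8 kb to another FLyB midpoint and 25.4 kb to a FLyA midpoint. At 42 regions both distances differed by at most 100 bp, so that a FLyA and a FLyB peak stood at nearly the same distance. That distance ranged from 0.521 to 307 kb with a median of 6.79 kb, and it was at most 50 kb at 34 of the 42. The nearest other FLyA peak was common to both media at 70 regions (28.7%, 23.1 to 34.8%) and activin-only at 174, where 33.0% of the whole FLyA list is common. Of the 27 regions with a FLyB midpoint within 2 kb, 16 had a common peak within that distance.

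**Figure D4:**
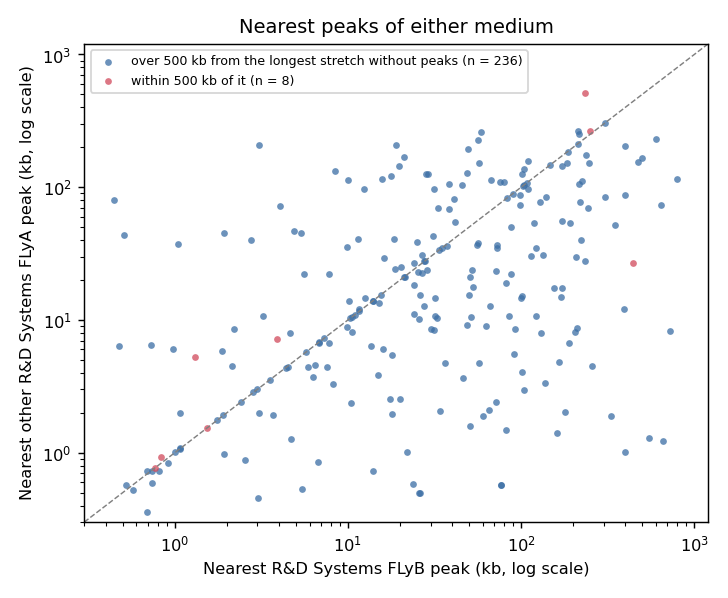
Distance in kb from each of the 244 activin-only regions to the nearest R&D Systems FLyB midpoint (x axis, log scale) and to the nearest other R&D Systems FLyA midpoint (y axis, log scale), with the 8 regions within 500 kb of the longest stretch without peaks in red. The dashed line marks equal distances: 153 regions lie below it, and 42 have distances that differ by at most 100 bp.

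By their R&D Systems neighbours within 50 kb, the regions fell into 4 kinds. At 119 regions (48.8%, 42.3 to 55.2%) peaks of both media were found. At 55 (22.5%, 17.5 to 28.3%) only FLyA peaks were found, and at 22 (9.02%, 5.74 to 13.3%) only FLyB peaks. The remaining 48 (19.7%, 14.9 to 25.2%) had no R&D Systems neighbour of either medium. The FLyA-only peaks without a Santa Cruz FLyA peak divided as 47.6%, 20.4%, 9.80% and 22.3%, and each of these shares lies inside the interval of the activin-only regions.

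The medium of the neighbours was then counted over different peaks within 50 kb of the regions. There were 248 activin-only, 147 common and 200 BMP4-only R&D Systems peaks, with the activin-only regions described here left out. Activin-only peaks thus made up 55.4% (50.6 to 60.0%) of the neighbours found in 1 medium alone, close to the 53.4% over both whole lists. Around the BMP4-only regions seen with both antibodies, activin-only peaks made up 35.9% (33.9 to 37.9%) of such neighbours and BMP4-only peaks the rest. Those BMP4-only regions were likewise left out of their own neighbours, while the share over both lists includes every peak. Around the activin-only regions the share over both lists lay inside the interval, and around the BMP4-only regions it lay above it. Without the 8 regions near a longest stretch the counts were 246 and 189, or 56.6% (51.7 to 61.3%).

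At the crowded end, 12 regions had 6 or more other R&D Systems FLyA peaks within 50 kb. The highest number was 9, around chr17:35204485-35204884, of which 5 were activin-only and 4 common, with 6 FLyB peaks in the same window. Around chr15:69846813-69847212 stood 7 other FLyA peaks, 5 of them activin-only, and 3 FLyB peaks. Around chr17:37852388-37852787 stood 7, again 5 of them activin-only, with 6 FLyB peaks. The pair chr17:71312905-71313304 and chr17:71314904-71315303, with midpoints 1999 bp apart, differed from these, since 6 of its 7 other FLyA peaks were common to both media. Each region of this pair is the activin-only neighbour of the other.

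Another crowded site was chr1:204893211-204893610, with 6 other FLyA peaks, of which 4 were activin-only, and 3 FLyB peaks. A common peak lay 3.53 kb from it, and a Santa Cruz FLyB peak stood at 3.52 kb. A further activin-only region of the set lay 67.3 kb away at chr1:204960464-204960863. Around chr5:124088767-124089166, 5 of 6 other FLyA peaks were activin-only, and 3 of 4 FLyB peaks were BMP4-only. On chromosome 2, the pair chr2:171196300-171196699 and chr2:171210851-171211250, 14.6 kb apart, each had 6 other FLyA peaks, with 7 and 5 FLyB peaks. The site chr10:42400046-42400445 stood out among the 12 by its 13 further Santa Cruz FLyA and 10 Santa Cruz FLyB peaks within 50 kb, where the other 11 had at most 2 and at most 1.

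**Figure D5:**
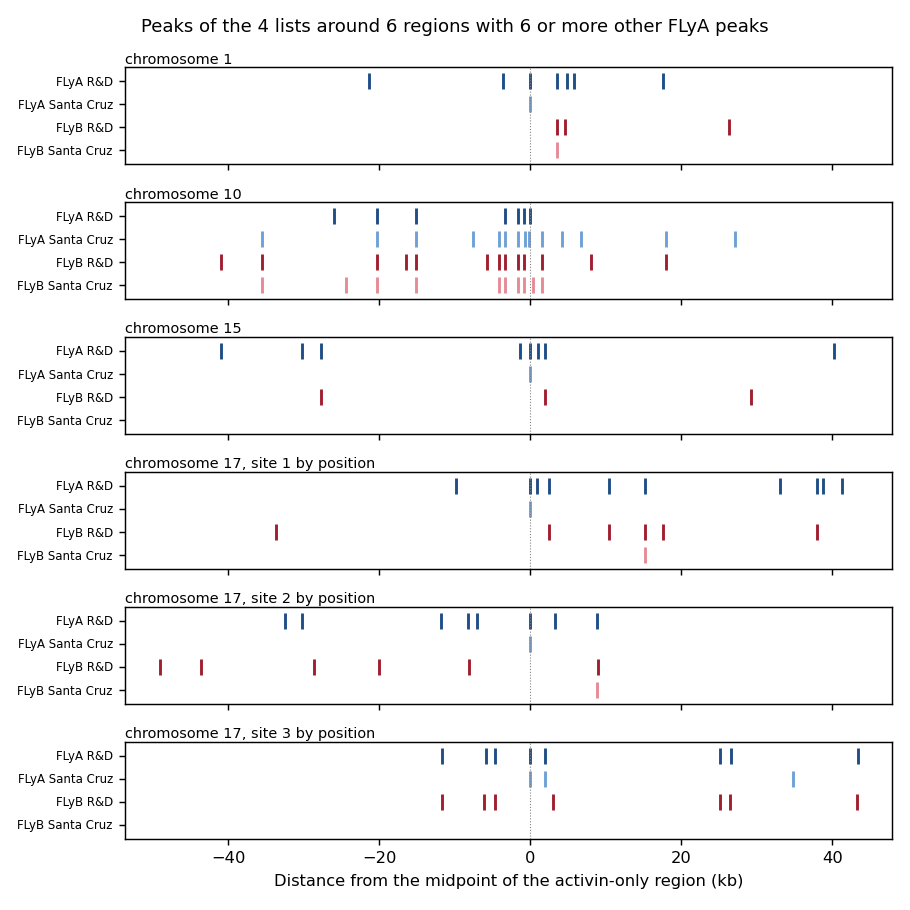
Peaks of the 4 lists (rows, 1 tick per midpoint) within 50 kb of 6 of the 12 activin-only regions with 6 or more other FLyA peaks, plotted as distance in kb from the region's midpoint. R&D Systems FLyB peaks stand beside the regions, and none can stand at 0 because the rule barred an overlap. The chromosome 10 panel also holds 13 further Santa Cruz FLyA and 10 Santa Cruz FLyB ticks.

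The largest group of R&D Systems FLyA peaks around a region without any R&D Systems FLyB peak within 50 kb stood at chr18:39453453-39453852, with 5 other FLyA peaks and the nearest FLyB midpoint at 59.9 kb. Within 100 kb, 72.5% (66.5 to 78.0%) of the 244 regions had an R&D Systems FLyB midpoint, against 75.8% of the FLyA-only peaks without a Santa Cruz FLyA peak, a share inside the interval. The other 67 regions were more than 100 kb from that list and 6 of them more than 500 kb, and with the Santa Cruz FLyB list included these counts were 66 and 5. The farthest from the R&D Systems FLyB list was chr3:79871240-79871639 at 798 kb, whose nearest other FLyA peak was 115 kb away, but a Santa Cruz FLyB midpoint lay 366 kb from it. Farthest over both FLyB lists was chr3:96987819-96988218 at 723 kb, followed by chr5:28402633-28403032 at 663 kb and chr1:238835598-238835997 at 639 kb. The region on chromosome 5 had 2 other FLyA peaks within 50 kb, the nearest at 1.23 kb, and that on chromosome 16 (chr16:8287466-8287865, 548 kb from the nearest FLyB midpoint) also had 2, the nearest at 1.29 kb. These remote sites were thus partly small FLyA clusters and partly single peaks.

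The most isolated regions had no further peak of any of the 4 lists within 100 kb. There were 22 of these (9.02%, 5.74 to 13.3%), against 7.69% (7.29 to 8.10%) of the FLyA-only peaks seen with the R&D Systems antibody alone and 4.78% (3.61 to 6.19%) of the BMP4-only regions seen with both antibodies. Farthest among them from both FLyB lists were chr6:129350891-129351290, 496 kb from an R&D Systems FLyB midpoint and 980.5 kb from a Santa Cruz one, and chr2:230045324-230045723, at 475 kb and 1564 kb. At the latter the midpoints of both antibodies lay 8 bp apart. Each of the 22 thus rested on 1 peak per antibody in FLyA, with nothing called beside it.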

How the data were processed

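Reads came from a Genome Analyzer II. Per the labels, the submitters' processing notes name Bowtie 0.12.7 and the build hg19, and the methods name MACS as the peak caller. The authors deposited 1 BED list per library, not pooled, with the position of each peak and no count, score or other value. A MACS threshold of 1e-12 stands in the header of each Santa Cruz list. For the R&D Systems lists a threshold is not given in the sources used here. Enrichment was expressed relative to input DNA in the study.

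Overlaps and distances were computed in Python 3.11.15, NumPy 2.4.6, SciPy 1.17.1 and pandas 2.3.3, with 1 bp of overlap counting as shared. Distances run between midpoints. The count of regions was checked with bedtools 2.31.1, and the functions were tested on simulated data, where 100% of 200 planted overlaps among 25864 regions were recovered. Figures were drawn with matplotlib 3.10.9.

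The regions and measures were chosen with earlier results of these data known. Gene lists, gene counts, motifs and the rule for named genes (listed genes within 50 kb of a region, genes with a start within 1 kb and genes with the most regions) need the genome or annotation of hg19 and were not run. Sites named in the text were chosen after their values were seen.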

Additional observations from a re-analysis of the deposited data

How the results depend on the processing

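The number of regions was 232 with an overlap of at least 200 bp, of which 209 were among the 244 and 23 were not, and 255 when a gap of up to 500 bp counted as overlap, of which 231 were among the 244 and 24 were not, since each setting changed both the overlap asked for and the overlap barred. It was 240 without a Santa Cruz FLyB peak either, 229 on autosomes and 243 after merging overlapping peaks of a list. The share on a Santa Cruz FLyB peak was 1.29% and 0.784% under the first 2 of these and moved to 0.424% without the 8 regions near a longest stretch without peaks, an alternative chosen after the data were seen. The share with an R&D Systems FLyB peak nearby was 11.1% within 2 kb and 57.8% within 50 kb, by construction of the distance, and stayed in its interval without the regions on a Santa Cruz FLyB peak (25.4%) and without those near a stretch (25.4%). Alternatives for motifs, gene starts and genes were not run for want of the genome and annotation of hg19. No paired analysis was possible because the lists hold positions with no value per peak, so the results come from no test. The depth behind each region is unknown, and the paper reports fewer unique reads for the Santa Cruz antibody, which limits every statement on absence.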
